A study of Mus musculus with 8 samples.

Results

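Described here are 6 genes that encode accessory subunits of Polycomb repressive complex 2 (PRC2): Phf1, Mtf2, Phf19, Lcor, Jarid2 and Aebp2. They were chosen by symbol, and 6 of 6 had a line among the 26171 genes of the deposited expression table. The table was made from polyadenylated RNA of the tail bud's posterior part, presomitic mesoderm included, dissected from mouse embryos at E8.5 and matched for somite number. The labels put 4 libraries in the genotype EPOP KO and 4 in the genotype WT, with no treatment in either group. The labels do not describe the knockout allele, the strain or whether a library holds 1 embryo or several.

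PRC2 places methyl groups on histone H3, a mark of genes held silent, and in the tail bud its known targets include the Hox genes. A shared catalytic core joins 1 of a pair of alternative sets of accessory proteins, which define the forms PRC2.1 and PRC2.2. PRC2.1 holds a Polycomb-like protein together with EPOP or a PALI protein, and PRC2.2 holds JARID2 and AEBP2. EPOP, the product of the gene targeted in the knockout, is thus an alternative to the PALI product of the Lcor locus within PRC2.1.

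No expression level, and no difference between EPOP KO and WT libraries, is given for these 6 genes. The deposited table held 8 value columns, and 0 of them had a name. Its file name lists 8 labels that match the sample titles, which may be the key to the columns, but nothing inside the table says that the columns follow that order, so columns were not given to genotypes by position or by value. The comparison of EPOP KO with WT libraries, which the series title ties to Hox gene regulation, was therefore not made for any of these genes. The depth of the libraries was not analysed here. Other PRC2 genes, and genes related to PRC2 without all being subunits, were looked up too. A line was present for 6 of 6 core genes (Ezh1, Ezh2, Eed, Suz12, Rbbp4 and Rbbp7) and for Epop itself. The same held for 5 of 5 accessory or related genes (Eloa, Elob, Eloc, Ezhip and Lcorl). Having a line is no evidence of expression. What follows describes the genes in the reference annotation, and how their structure bears on a value per gene.

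The Polycomb-like genes encode PHD-finger and Tudor-domain proteins that bind CpG-rich DNA and bring PRC2.1 to it. Positions are from GENCODE M21, on the mm10 build, counted from 1. Phf1 (ENSMUSG00000024193.8) lies on the plus strand of chromosome 17 from position 26933052 to 26937908. Mtf2 (ENSMUSG00000029267.17) lies on the plus strand of chromosome 5 from 108065674 to 108109004. Phf19 (ENSMUSG00000026873.9) lies on the minus strand of chromosome 2 from 34893757 to 34914026. The 3 genes differ in span, 4857 bp for Phf1, 43331 bp for Mtf2 and 20270 bp for Phf19, while their longest complete coding sequences are close in length, at 1800, 1782 and 1737 nt in that order.

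Lcor encodes a ligand-dependent nuclear receptor corepressor, and a longer product of the same locus, PALI1, is a PRC2.1 subunit. Lcor (ENSMUSG00000025019.16) lies on the plus strand of chromosome 19 from 41482637 to 41562261. Its annotated complete coding sequences, in 2 of 3 coding transcripts, were both 1302 nt long with the stop codon. The other is incomplete, and its annotated part, 1190 nt, does not give its full length. GENCODE M21 thus lists no longer complete coding sequence under this symbol. Whether reads of PALI1 transcripts entered the deposited Lcor line was not tested.

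Jarid2 encodes a DNA-binding Jumonji-family protein without demethylase activity, and Aebp2 encodes a zinc-finger protein. Jarid2 (ENSMUSG00000038518.15) lies on the plus strand of chromosome 13 from 44729474 to 44921643 and was the longest of the 6 genes, at 192170 bp. Its longest complete coding sequence in GENCODE M21, 3705 nt, was also the longest complete one listed there for the 6 genes. Lcor enters that ranking at 1302 nt, without the longer PALI1 product. Aebp2 (ENSMUSG00000030232.18) lies on the plus strand of chromosome 6 from 140622663 to 140678472. Its complete coding sequences ran from 825 to 1515 nt over 5 transcripts, the widest range among complete coding sequences of the 6 genes. Incomplete ones were left out, which kept 5 of 6 coding transcripts for Aebp2 but 3 of 8 for Jarid2. A single value for Aebp2 can thus add up products of different length, but which of its transcripts were present was not tested. The same holds for Phf1 (1677 to 1800 nt, 3 of 3 coding transcripts kept) and Mtf2 (1611 to 1782 nt, 2 of 5 kept). Phf19, Lcor and Jarid2 each showed a single length, with 1 of 2, 2 of 3 and 3 of 8 coding transcripts kept. Their incomplete coding sequences could differ in length. The 6 genes lie on 6 different chromosomes.

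Reads from overlapping genes cannot be told apart where counting does not use strand, and Smart-seq2, the library type the labels name, in its standard form does not mark strand. With all annotated transcripts merged, 1370 bp of the 3486 bp of Phf1 exon, 39.3%, were also exon of another gene, and all 1370 bp overlapped Cuta, a protein-coding gene on the opposite strand with a line of its own. Of these, 156 bp were also exon of AC144621.3, on the opposite strand and without a line. The Phf1 share rested on transcripts that do not code for protein: it was 3.10% (82 of 2642 bp) with the GENCODE basic set and 0% with protein-coding transcripts alone. Which neighbour holds the 82 bp was not worked out. Mtf2 shared 395 of its 5698 bp, 6.93%, with Tmed5, also protein-coding, on the opposite strand and listed. The same 395 bp were shared with protein-coding transcripts alone, where they made 9.69% of 4076 bp. Phf19, Lcor, Jarid2 and Aebp2 shared 0 bp of exon with another annotated gene in each of the 3 sets. Whether reads of Cuta or Tmed5 entered the deposited values was not tested.

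**Figure D1:**
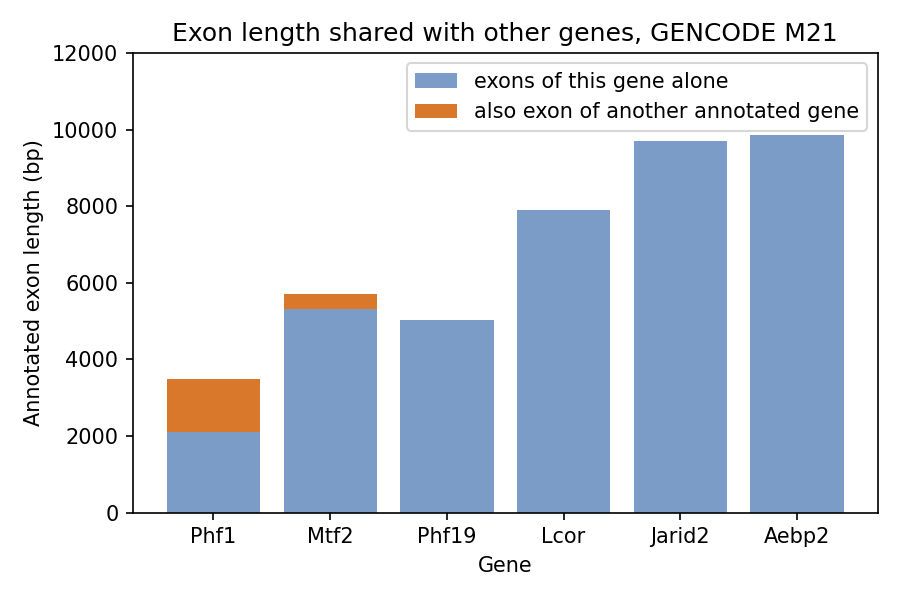
Bars show the annotated exon length of each gene in bp, all transcripts merged (coding or not), with the part that is also exon of another annotated gene in orange. Phf1 has 1370 of 3486 bp in orange (0% with protein-coding transcripts alone), Mtf2 has 395 of 5698 bp, and the other genes have 0.

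The 3 Polycomb-like genes are paralogs, but their coding sequences hold only short identical stretches. The longest identical run was 17 nt between Phf1 and Mtf2, 17 nt between Phf1 and Phf19, and 14 nt between Mtf2 and Phf19. Among the other 12 pairs of the 6 genes the longest run was 9 to 12 nt. Untranslated regions and reverse complements were not compared, and Lcor entered without the longer PALI1 product. The run length that unrelated sequences would share was not computed.

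The Polycomb-like proteins bind CpG-rich DNA, and the CpG content of the genes' own promoters was therefore counted. RefSeq promoter windows of build GRCm38.p6 run from 250 bases before to 50 bases after a start, and 6 of 6 genes matched by symbol, with 10 windows in all. Over all 32851 windows of the table the median was 7 CpG, with quartiles of 3 and 20. Of the 10 windows, 7 lay above the upper quartile, and each of the 6 genes had at least 1 such window. The quartile is over windows, and a gene with several windows has more than 1 way to pass it. The share of all genes with such a window was not computed, so whether the count of genes sets these 6 apart is not known. Aebp2 passed with 1 window, at 21 CpG against a quartile of 20. Ranked instead by the ratio of observed to expected CpG, 5 of the 6 genes had one, since the Phf1 window (0.698) fell below the upper quartile (0.75). Lcor had the most, 49 CpG, more than 98.98% of all windows, followed by Phf19 with 38. Phf1 had 24, and the Jarid2 windows had 24 and 23. Mtf2 and Aebp2 have windows of both kinds, 30 and 2 CpG for Mtf2, and 4, 21 and 4 CpG for Aebp2. This is a description of reference sequence, with no test, and says nothing of methylation or of PRC2 binding in these embryos.

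The Lcor window (chr19:41482432-41482731, plus strand) and the pair of Mtf2 windows (chr5:108065424-108065723 and chr5:108077915-108078214, plus strand) are shown because they span this range. They are written 5′ to 3′, with each CpG in capitals.
Lcor: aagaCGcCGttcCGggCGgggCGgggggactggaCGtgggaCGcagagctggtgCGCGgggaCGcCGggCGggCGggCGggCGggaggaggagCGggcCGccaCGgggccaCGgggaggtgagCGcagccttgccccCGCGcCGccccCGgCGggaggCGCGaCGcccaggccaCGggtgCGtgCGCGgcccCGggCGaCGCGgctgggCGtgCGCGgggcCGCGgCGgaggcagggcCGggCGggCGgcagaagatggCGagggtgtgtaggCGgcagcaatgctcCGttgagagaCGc
Mtf2 window 1: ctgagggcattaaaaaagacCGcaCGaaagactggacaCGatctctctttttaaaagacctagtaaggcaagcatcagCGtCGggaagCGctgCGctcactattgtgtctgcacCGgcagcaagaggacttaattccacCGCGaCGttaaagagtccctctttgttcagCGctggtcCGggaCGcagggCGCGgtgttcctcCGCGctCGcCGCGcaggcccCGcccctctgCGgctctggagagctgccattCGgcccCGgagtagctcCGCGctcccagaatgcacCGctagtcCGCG
Mtf2 window 2: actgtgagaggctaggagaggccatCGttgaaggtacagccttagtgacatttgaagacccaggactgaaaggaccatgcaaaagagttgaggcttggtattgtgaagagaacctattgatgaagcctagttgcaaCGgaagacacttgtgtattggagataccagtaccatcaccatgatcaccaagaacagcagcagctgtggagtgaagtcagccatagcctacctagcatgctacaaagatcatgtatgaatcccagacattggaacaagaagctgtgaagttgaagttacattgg
In the Lcor window and in the first Mtf2 window the CpGs run through most of the sequence, while the second Mtf2 window, inside the annotated gene, holds 2.

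**Figure D2:**
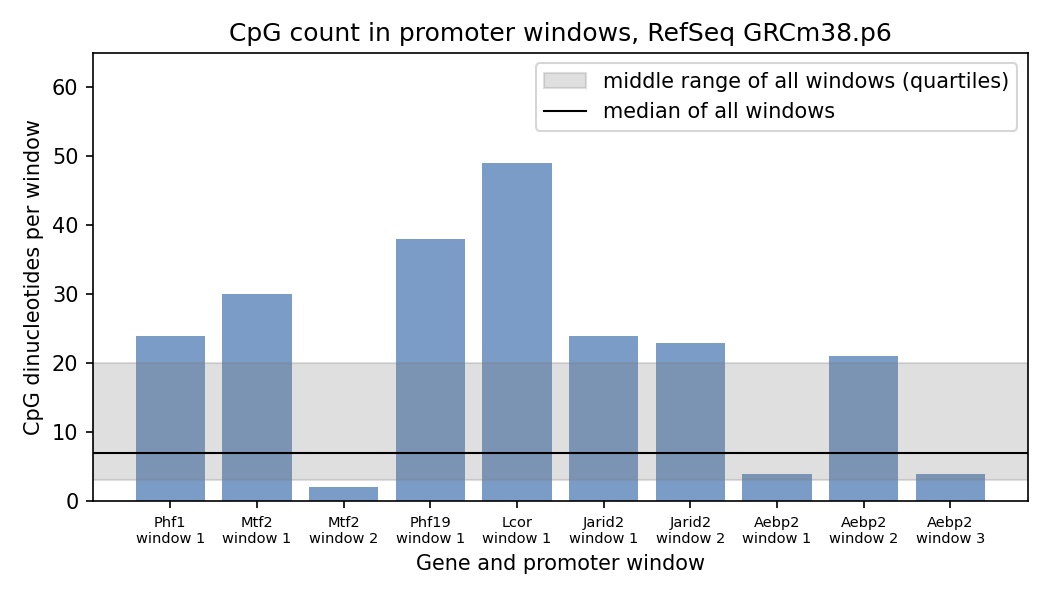
Bars show the number of CpG dinucleotides in each RefSeq promoter window of the 6 genes, and the grey band and black line show the quartiles and the median of all 32851 windows. The Lcor window stands highest at 49, and 1 window of Mtf2 and 2 windows of Aebp2 lie below the median of 7.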

How the data were processed

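The data are 1 table of the whole series, made by the authors from 8 Smart-seq2 libraries, per the labels' protocols. Per its file name, the deposited table holds RPKM, a read measure scaled by the authors for gene length and depth. TopHat and DESeq2 appear, with the build mm10 and no roles, in the submitters' processing notes. No source used here gives the annotation, the counter, filters or whether counting used strand. The table has no header line, and 8 value columns were not used because none has a name that matches a sample. Only the deposited gene symbols, which are not a score or other measurement, were used; values of the first lines, none of a gene named here, were seen when the format was inspected. The limma comparison planned for the 8 libraries was not run. Gene structures came from GENCODE M21, with exons of all transcripts merged (alternatives: the basic set, or protein-coding transcripts), and promoters from RefSeq (GRCm38.p6, a patch release of the assembly that mm10 stands for), with CG counted on the printed strand. Identical runs were sought between the longest complete coding sequence of each gene. Python 3.11.15 was used. The 6 genes and the lists were chosen with earlier results of these data known, and named genes are the members, Epop and the lists of PRC2 and related genes.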

Additional observations from a re-analysis of the deposited data

How the results depend on the processing

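None of the 24 planned settings (pseudocount, filter on low values, rescaling and leaving out each library) was run, because the 8 value columns carry no names and no comparison of EPOP KO with WT was made. No paired analysis was possible because the columns carry no names and the labels pair no samples: the groups share 1 replicate number, 11, and the word paired in the table's name is not explained, while the design text speaks of paired-end reads. Alternatives added after seeing the data were run on the annotation. The exon share of Phf1 that overlaps another gene, 39.3% with all transcripts, was 3.10% with GENCODE basic transcripts and 0% with protein-coding transcripts. The share for Mtf2 was 6.93%, 9.73% and 9.69% in the same order, and the other 4 genes were at 0% throughout. Ranked by the ratio of observed to expected CpG, 6 of the 10 promoter windows lay above the upper quartile, against 7 by CpG count. Phf1 no longer had such a window, which left 5 of the 6 genes. The share of all genes with such a window was not computed for either ranking. What is given rests on reference annotation, so sequencing depth does not limit it. No source used here gives the annotation behind the deposited values, so the overlap of Phf1 with Cuta in that annotation was not tested.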
